A study of Drosophila melanogaster with 9 samples.

Results

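The sources of piRNAs in wild-type (WT) ovaries were examined on the sense and antisense strands of the same libraries. The members are the 3 small RNA libraries labelled WT_1, WT_2 and WT_3, of 9 libraries in the series, and none of the mutant libraries was used. In these libraries 42AB was the strongest cluster on both strands, and beyond it the leading sources differed by strand. Cluster 2, flam and cluster 5 followed on the sense side, whereas cluster 11, cluster 17 and cluster 3 came next on the antisense side. Small RNAs from 3′ untranslated regions (UTRs) lay mostly on the sense strand, where the chorion gene Cp15 led, and few were strong on the antisense strand, led by CG1463, which had no sense abundance.

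The WT females carried hs-Flp, the FRTG13 site on both homologs and ovo[D1-18] on one of them. Repeated heat shocks of larvae, at 37 C for 40 min each, thus induced germline recombination. The dominant female-sterile ovoD1 element stops egg chambers early, and those that develop further carry germline clones without it, here with no mutant allele of the histone acetyltransferase gene enok. Follicle cells and other somatic cells of such an ovary are not selected in this way, and the values come from whole egg chambers of 3 to 5 day old adults. By the authors' methods these egg chambers were of middle and late stages, with the earliest stages left out. RNAs of 18 to 30 nt were sequenced with strand kept. The labels do not say whether the 3 libraries came from separate flies or cultures, and p-values then measure only the spread between these libraries.

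PIWI-interacting RNAs (piRNAs) guide PIWI proteins to transposon transcripts and to the loci that encode them. Most arise from piRNA clusters, long stretches of transposon remnants. Dual-strand clusters are transcribed on both genomic strands in germline cells, with 42AB as the classic example, and the opposing piRNAs can amplify each other in the ping-pong cycle. Uni-strand clusters are read from 1 strand, and flamenco (flam), which works in the follicle cells, is the best known. A further class of piRNAs is cut from the 3′ UTRs of messenger RNAs, for which traffic jam (tj), a follicle cell transcription factor gene, is the textbook source. These piRNAs lie in the sense orientation of their gene.

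Values are abundances relative to the microRNAs (miRNAs) of the library, without a further unit, and a level therefore moves with the miRNA content while a share or a strand ratio within a library does not. For a 3′ UTR, sense is the strand of the transcript. For a cluster, sense and antisense are used as the tables label them, and the labels do not say which genomic strand they stand for. Sums, ranks and concentration by strand, and the side on which a cluster is one-sided, therefore depend on this labelling. All 140 clusters had reads on both strands. Taking the smallest regular step of the low values as 1 read, clusters held 751714, 796921 and 768568 read equivalents on the sense strand, against 617133, 651019 and 615726 on the antisense strand of WT libraries 1, 2 and 3. For 3′ UTRs the ranges were 50563 to 57564 on the sense strand, against 3526 to 3878 on the antisense strand, so that antisense 3′ UTR values rest on far fewer reads.

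Summed over clusters, the sense strand held 301061, 317972 and 320877 and the antisense strand 247162, 259757 and 257065 in libraries 1, 2 and 3. All 3 sense totals lay above all 3 antisense totals. The sense strand made up 55.2% ± 0.32 of the cluster abundance, with a sense to antisense ratio of 1.23 ± 0.016 (SD, n = 3 libraries). With 3 libraries a 2-sided exact permutation test within libraries cannot give a p below 0.25, and it gave that value here. Without 42AB the ratio was 1.250 ± 0.015. At 53.6% sense 42AB lay below the share of all clusters, so leaving it out could only raise the ratio. One-sided clusters (below), with cluster 2 and flam among the sense ones, entered the sums unequally. Those of the sense strand held 23.3% of the sense and 1.78% of the antisense abundance, and those of the antisense strand 1.96% and 21.6%.

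42AB had an abundance of 61734, 61091 and 63768 on the sense strand, against 53235, 54617 and 53798 on the antisense strand. It ranked first on both strands in every library, with the strands clearly apart but close to each other in size. Its share was 19.9% ± 0.65 of the sense and 21.2% ± 0.33 of the antisense cluster abundance, and 53.6% ± 0.73 of its own abundance was sense. The log2 difference between sense and antisense was 0.21 ± 0.039 (SE; limma, adjusted p = 6.59e-05), which did not pass a test for a difference beyond 2-fold. The cluster known as dual-strand was thus measured as nearly balanced.

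**Figure D1:**
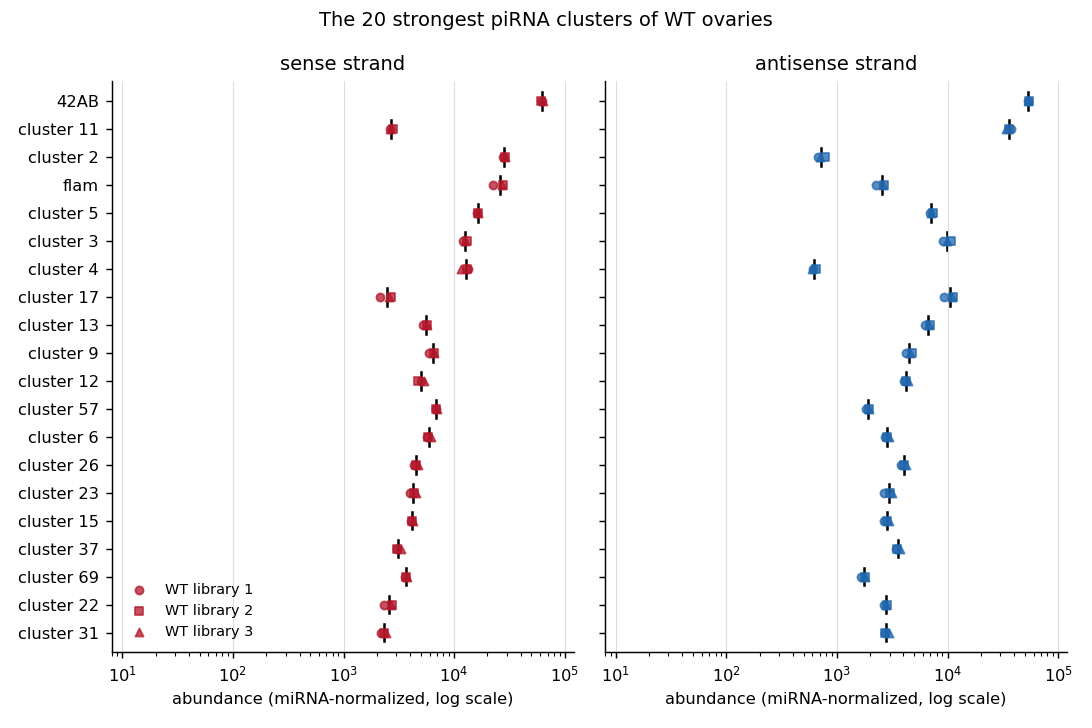
Abundance (normalized to miRNAs, log scale) of the 20 clusters with the highest mean over both strands, for sense (left) and antisense (right). Symbols are the 3 WT libraries and the black line is their mean. 42AB leads on both sides, while cluster 11 drops to a mean of 2683 on the sense side, and cluster 2 and cluster 4 to 724 and 616 on the antisense side.

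Cluster 2 and flam, next after 42AB on the sense strand, were much weaker on the antisense strand. Cluster 2 had 27726, 28969 and 28842 on the sense strand, against 678, 786 and 707 on the antisense strand, a ratio of 39.5 ± 2.3. It was second among sense clusters with 9.10% ± 0.11 of the strand, and rank 66 among antisense clusters with 0.28% ± 0.02. Its log2 difference was 5.30 ± 0.042 (SE; limma, adjusted p = 3.02e-25, and 0.0012 with the cluster's own variance).

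flam, the follicle cell cluster, had 22479, 27361 and 27269 on the sense strand, against 2276, 2692 and 2628 on the antisense strand. Library 1 was the lowest on both strands, and the sense share hardly moved, at 90.8%, 91.0% and 91.2%. It took 8.19% ± 0.63 of the sense and 0.99% ± 0.06 of the antisense abundance, with ranks 3 and 23. The log2 difference was 3.34 ± 0.039 (SE; limma, adjusted p = 8.30e-23). In RNA of whole egg chambers, fewer cells of a type and less RNA per cell cannot be told apart, and this holds for the lower flam level of library 1. Clusters in general were also lower in that library (below), and levels move with the miRNA content too.

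Cluster 4 had 13368, 13145 and 11544 on the sense strand, against 604, 645 and 599 on the antisense strand. Library 3 was the lowest on the sense strand, and the strands stayed far apart in all 3 libraries. Its ranks were 5 on the sense strand and 74 on the antisense strand, and 95.4% ± 0.31 of its abundance was sense. Cluster 5, with rank 4 on the sense strand and 15990, 16570 and 16339, kept 6966, 7354 and 7034 on the antisense strand. The log2 difference of cluster 5 was 1.20 ± 0.038 (SE; limma), which passed the test beyond 2-fold (adjusted p = 1.61e-04).

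On the antisense strand the second source was cluster 11, which stood lower in the order on the sense strand. It had 2637, 2776 and 2637 on the sense strand, against 37527, 36275 and 33576 on the antisense strand. Its share was 0.86% ± 0.03 of the sense and 14.1% ± 1.1 of the antisense abundance, with ranks 20 and 2. Antisense was 13.3 ± 0.78 times sense in the mean of the 3 libraries. The log2 difference was −3.74 ± 0.042 (SE; limma, adjusted p = 4.73e-23).

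Cluster 17 had rank 22 among sense and rank 3 among antisense sources. Its abundance was 2148, 2705 and 2559 on the sense strand, against 9226, 11129 and 11043 on the antisense strand. Library 1 was again the lowest on both. Cluster 97, which ranked 97 on the sense strand with 352, 390 and 353, ranked 7 on the antisense strand with 4875, 4610 and 4270. The log2 differences were −2.08 ± 0.039 for cluster 17 and −3.65 ± 0.045 for cluster 97 (SE; limma), and both passed the test beyond 2-fold.

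The strands shared some of their leading clusters. Clusters 42AB, 5, 3, 13 and 9 stood among the 10 strongest on both strands, and 12 clusters stood among the 20 strongest on both. Cluster 3 had 12105, 13052 and 12588 on the sense strand, against 9106, 10839 and 9934 on the antisense strand, with 55.9% ± 1.2 of its abundance in sense. Cluster 13 was the reverse case, with 5255, 5672 and 5657 on the sense strand, against 6207, 6952 and 6731 on the antisense strand. Cluster 9 had the higher sense share, 58.6% ± 0.39, at a lower summed level than both. The 10 strongest clusters of each strand were the same 10 in all 3 libraries.

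The remaining members of the sense top 10 were cluster 57 and cluster 6. Cluster 57 averaged 6913 ± 89.0 on the sense strand and 1923 ± 73.9 on the antisense strand, and cluster 6 averaged 5893 ± 278 and 2836 ± 105 (SD, n = 3). The antisense top 10 was completed by cluster 12 and cluster 26, which were near balance. Cluster 12 averaged 5026 ± 302 on the sense strand and 4227 ± 192 on the antisense strand, and cluster 26 averaged 4522 ± 169 and 4008 ± 203. Thus the sense list was filled up by unequal clusters and the antisense list by nearly equal ones.

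Ranks on the strands went together only in part. Across the 140 clusters the Spearman coefficient between sense and antisense abundance was 0.78 and the Pearson coefficient of log2 values was 0.74, given as a description because both strands of a cluster share a library and a length. Among the 50 strongest clusters, cluster 19 had the largest shift of rank, with rank 23 on the sense strand and rank 138 on the antisense strand. Clusters 97, 4, 2 and 62 followed, and cluster 62 had rank 32 for sense and rank 79 for antisense. The published cluster number itself went with the rank of both strands, with a Spearman coefficient of 0.69 over the same clusters.

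The concentration of abundance was compared next. Between 6 and 7 clusters made up 50% of the sense abundance, against 7 to 8 clusters on the antisense strand, and in each library the sense strand needed 1 cluster fewer. The 10 strongest clusters held 58.3% ± 0.47 of the sense and 55.4% ± 1.0 of the antisense abundance. Their difference was 2.88 ± 0.63 percentage points, in the same direction in 3 of 3 libraries (2-sided exact permutation test, p = 0.25). At the lower end the strands were alike, since 90% was reached with 61 to 62 clusters on either strand. The 70 weakest clusters of each strand together gave 7.47% ± 0.11 of sense and 7.44% ± 0.20 of antisense.

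The inverse Simpson index, the number of equal clusters that would give the same concentration, was 15.4 ± 0.45 on the sense strand and 13.6 ± 0.72 on the antisense strand. By this index, which weighs the strongest members most, the antisense strand was the more concentrated, while by the top 10 share the sense strand was. Both differences had the same direction in all 3 libraries. With 42AB left out, cluster 2 held 11.4% ± 0.20 of the remaining sense abundance, whereas cluster 11 held 17.9% ± 1.4 of the remaining antisense abundance. The number of clusters for 50% was then 10 to 11 on the sense strand and 13 to 14 on the antisense strand. The 2 strongest clusters together held 29.0% ± 0.70 on the sense strand and 35.2% ± 1.4 on the antisense strand.

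**Figure D2:**
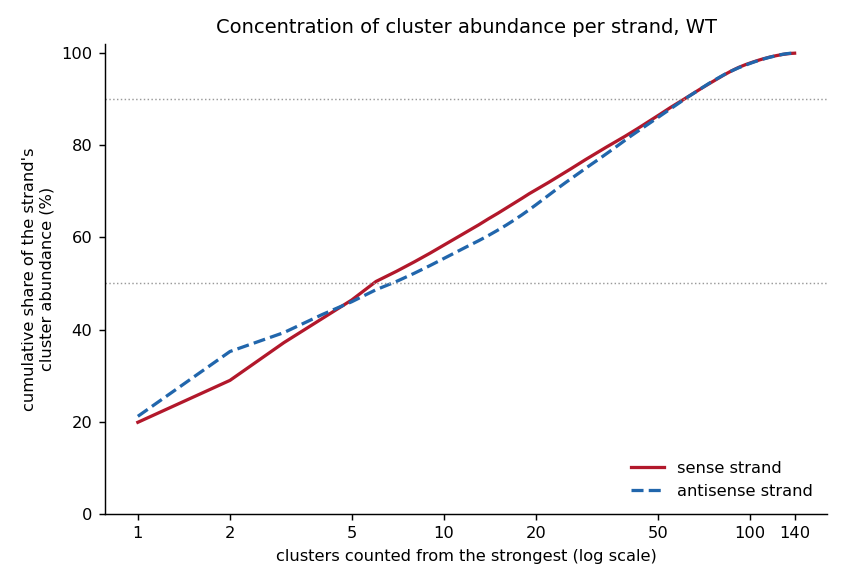
Cumulative share of a strand's cluster abundance (%, from shares averaged over 3 WT libraries) against the number of clusters counted from the strongest (log scale), for the sense (solid) and antisense (dashed) strand. Dotted lines mark 50% and 90%. At 2 clusters the sense curve stands at 29.0% and the antisense curve at 35.2%, and at 10 clusters the sense curve at 58.3% and the antisense curve at 55.4%.

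Each cluster was then tested for a strand difference on the scale of log2(abundance + 1), with both strands of a library paired. Of the 140 clusters tested, 77 were higher on the sense strand (55%) and 54 on the antisense strand (38.6%), so that 131 passed in either direction (93.6%; limma, adjusted p under 0.05). Replicates differed so little that differences of well under 1 log2 unit were called. A difference beyond 2-fold passed for 27 clusters in favour of sense (19.3%) and 14 in favour of antisense (10%), 41 in all (29.3%). Sense was above antisense in every library for 81 clusters, antisense above sense in every library for 53, and 6 were mixed.

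One-sided clusters were defined as those with at least 80% of their abundance on 1 strand in the mean of the libraries. On the sense strand 10 qualified, 7.14% of all clusters, and they gave 23.3% ± 0.51 of the sense and 1.78% ± 0.08 of the antisense abundance. On the antisense strand 7 qualified, and they gave 1.96% ± 0.08 of the sense and 21.6% ± 0.88 of the antisense abundance. The other 123 clusters were two-sided, and 62 of these were balanced, with 40% to 60% of their abundance on the sense strand. Balanced clusters, with 42AB among them, carried 51.7% ± 0.34 of the abundance of both strands.

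The one-sided sense clusters ranged from 22.1 to 29236 in summed abundance of both strands. Clusters 2 and 4 and flam were among the strongest of both strands, whereas cluster 114, the weakest cluster of the tables, had 19.1 on the sense strand and 3.01 on the antisense strand in the mean. Cluster 19 was the most one-sided, with 2103, 2666 and 2570 on the sense strand, against 13.8, 17.2 and 12.9 on the antisense strand. In all 3 libraries its sense share was above 99%, with a mean of 99.4% ± 0.09. Cluster 110 reached 97.5% ± 0.20 at a much lower level, with 198, 214 and 223 on the sense strand, against 4.70, 5.95 and 5.53 on the antisense strand. The study left this last cluster out, along with others, for want of unique reads in WT. The cluster values used here therefore do not look like those of unique mappers alone. Shares, ranks and strand ratios of clusters may thus include reads shared between positions. Clusters 48, 125, 55 and 121 lay between 81.5% and 85.8%.

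Among the one-sided antisense clusters, 11 and 17 were strong and the other 5 lay between 649 and 4950 in summed abundance. Cluster 108 had 193, 207 and 201 on the sense strand, against 1412, 1496 and 1554 on the antisense strand. Clusters 132 and 122 were alike in level, with sense shares of 12.1% ± 0.50 and 12.4% ± 0.35, and cluster 103 had 14.2% ± 0.23. No cluster on the antisense side was as one-sided as clusters 2, 19 and 110 on the sense side, the lowest sense share being the 6.99% ± 0.37 of cluster 11.

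The limit of 80% cut through a continuous range of shares. Just outside it lay cluster 94 with 79.9%, cluster 124 with 79.5% and cluster 27 with 79.5% sense, and just inside it cluster 17 with 80.9% antisense and cluster 121 with 81.5% sense. For 136 of the 140 clusters the class was the same in every library. Clusters 27, 61, 94 and 124 crossed the limit in 1 or more of them.

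**Figure D3:**
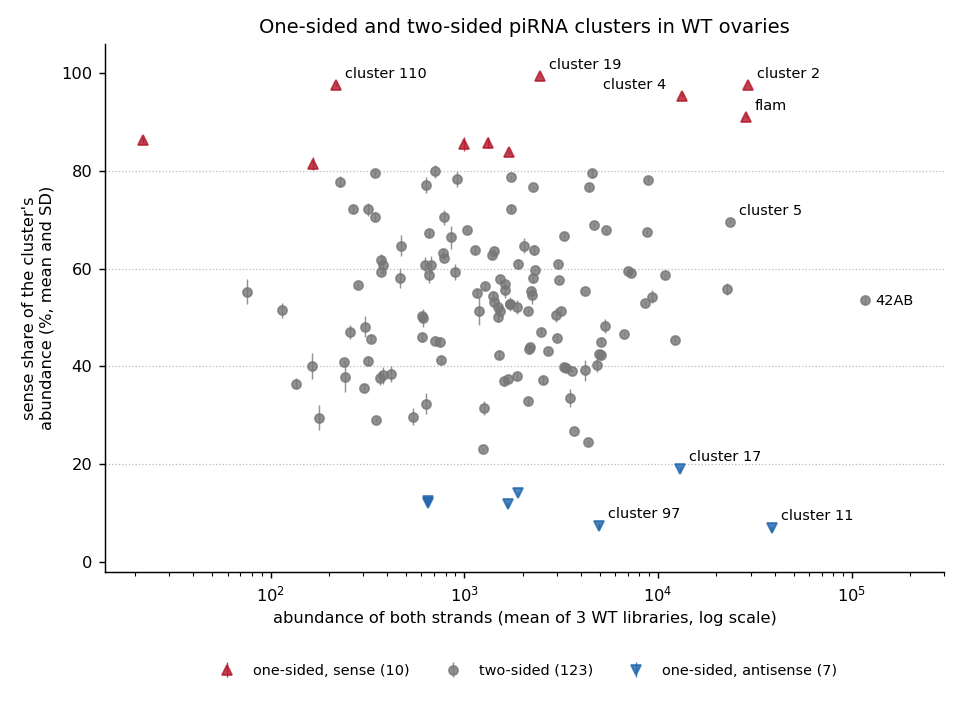
Sense share of each of the 140 clusters (%, mean and SD of 3 WT libraries) against its abundance on both strands (log scale). Triangles pointing up are the 10 one-sided sense clusters, triangles pointing down the 7 one-sided antisense clusters, and circles the 123 two-sided ones, with dotted lines at 20%, 40%, 60% and 80%. One-sided sense clusters run from 22.1 to 29236 in abundance, and 42AB, the strongest cluster, sits at 53.6%.

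Near balance, the named clusters were 43, 30, 22, 26 and 41. Cluster 43 had 1385, 1600 and 1535 on the sense strand, against 1449, 1544 and 1436 on the antisense strand, and its strands overlapped. Its log2 difference of 0.03 ± 0.042 (SE) did not pass the test (limma, adjusted p = 0.53). Cluster 30, with a difference of 0.07 ± 0.039, did not pass either (adjusted p = 0.084 by limma). Cluster 22 passed with −0.10 ± 0.041 (adjusted p = 0.032 by limma), but not with its own variance (adjusted p = 0.18) or without library 1 (−0.05, adjusted p = 0.30) or library 3 (−0.13, adjusted p = 0.060). Besides 43 and 30, the clusters that did not pass were 38, 44, 14, 101, 129, 93 and 111.

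Strand shares were reproducible. The median SD of the sense share over the 3 libraries was 0.78 percentage points, and the largest was 3.06. On the log2 scale the median SD over libraries was 0.082 for the sense level, 0.082 for the antisense level and 0.054 for their ratio. In 81.9% of the pairs of cluster and library, both strands deviated from the cluster's mean in the same direction. Levels on the strands of a library thus moved together more than they moved apart, and the ratio had the smaller spread in 95 of 140 clusters. Both strands share the miRNA normalization of the library, which moves them together, and its part was not separated.

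Between libraries 2 and 3 the median absolute log2 difference was 0.056 for sense and 0.059 for antisense clusters. Library 1 was lower than the others on both strands, by a median of 0.10 (library 2) and 0.12 (library 3) on sense and by 0.10 and 0.12 on antisense. The coefficient of variation (CV) over the libraries had a median of 5.66% on the sense strand and 5.67% on the antisense strand. It was 7.35% and 7.14% in the 35 weakest clusters, against 5.54% and 5.51% in the 35 strongest. The clusters whose share of both strands varied most were 111, 116 and 66, all among the weaker ones, with CVs of 15.9%, 12.6% and 11.4%.

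For 3′ UTRs sense is the strand of the transcript, so their strand balance is not on the same footing as that of clusters. The tables list 8510 features, many of them transcript variants with 1 shared 3′ UTR, and 4545 were left after merging entries equal in chromosome, start, strand and values. Variants that differ in start or value stayed separate, so some genes, tj among them, still enter sums, ranks and counts more than once. With 1 feature per gene the mean sense sum was 19194, against 22195 for the 4545, and the strongest feature held 22.0%, against 19.1%. For the 4545 features the sense sums were 22506, 22968 and 21110, against antisense sums of 1412, 1547 and 1520 in libraries 1, 2 and 3. Sense was 15.9, 14.8 and 13.9 times antisense, and 93.7% ± 0.41 of the 3′ UTR abundance was sense (2-sided exact permutation test, p = 0.25). Over both strands, clusters held 22.9, 23.6 and 25.5 times the abundance of 3′ UTRs in the same libraries.

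Most 3′ UTRs had no antisense small RNA at this depth. The antisense value was listed at 0 in all 3 libraries for 66.8% of features, and the sense value for 1.52%. A mean of 10 or more was reached by 274 features on the sense strand and 26 on the antisense strand, of which 7 were the same. Of the 293 features with such a mean on the higher strand, 271 were higher on the sense strand (92.5%) and 22 on the antisense strand (7.51%) by limma, so that every one passed (100%). Beyond 2-fold the counts were 271 and 15 (5.12%), or 286 in either direction (97.6%). Since a feature entered this test through the strand on which it was high, these counts are given as a description. With the minimum at 1 the counts were 2454 and 133, again mostly in favour of sense.

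Cp15, which encodes a chorion protein of the eggshell, was the strongest 3′ UTR source by far. It had 5542, 4590 and 2682 on the sense strand, against 0, 0.40 and 0 on the antisense strand. Library 3 was lowest, with less than the other libraries by a wide margin, and Cp15 took 19.1% ± 6.0 of the sense 3′ UTR abundance. Without it the strand ratio was 12.01, 11.88 and 12.13 in the 3 libraries (an alternative chosen after seeing the data), and the SD of the ratio was 0.12 without Cp15 and 1.02 with it. Cp18 and Cp19, neighbouring chorion genes on chromosome 3L, had 491, 353 and 367 and 245, 109 and 196 on the sense strand. In dm3 their 3′ UTRs start at 8720628 (Cp18), 8722046 (Cp15) and 8723619 (Cp19).

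Chorion and vitelline membrane genes were counted as a list. Of 26 listed genes 13 were in the tables, 8 had a sense mean of 10 or more and none an antisense mean of 10 or more. For comparison, 7.64% of the 3063 genes of the tables had a sense mean of 10 or more, and the median sense abundance was 18.1 for the eggshell list and 1.39 for all genes. The list's sense sum was 6660, 5337 and 3657, against 0, 1.20 and 0 on the antisense strand, which was 23.4% of the sense strand. Levels varied widely between libraries, with a median CV of 30.5%, and not in 1 direction. Cp38 had 218, 96.6 and 194 on the sense strand, lowest in library 2, and the vitelline membrane gene Vm26Aa had 27.6, 52.9 and 49.3, lowest in library 1.

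Yolk protein genes, which follicle cells and fat body express, varied most. Yp1 had 25.2, 103 and 66.8 on the sense strand and was listed at 0 on the antisense strand, a CV of 59.7%. Yp2 and Yp3 were lowest in library 1 as well. The summed sense abundance of the 3 was 31.2, 124 and 81.9.

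The known source tj had 49.6, 54.1 and 62.9 on the sense strand and was listed at 0 on the antisense strand in all 3 libraries. It ranked 45th among sense 3′ UTR features, some of them variants of the same gene, and library 3 was highest. Of the follicle cell genes, 10 of 17 were in the tables and 2 of them reached 10 (20%, against 7.64% of all genes), tj and fs(1)Yb, a Tudor domain gene of the somatic piRNA pathway with 9.20, 13.96 and 9.19. Germline and maternal genes reached 10 in 1 of 15 (6.67%, about the share of all genes), the translational regulator gene tral with 14.5, 19.8 and 20.7. Among piRNA pathway genes 2 of 13 reached 10 (15.4%), Hel25E, which encodes the RNA helicase UAP56, and again fs(1)Yb, and piwi had only 2.53, 1.26 and 2.92.

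Ribosomal protein genes reached 10 in 10 of 71 (14.1%, against 7.64% of all genes), with sums of 418, 461 and 410 on the sense strand, against 1.04, 2.70 and 2.66 on the antisense strand. RpL3 led them with 70.6, 78.2 and 70.0. For cells outside the germline and follicle epithelium, 4 of 12 listed genes of the ovarian muscle sheath were present. They summed to 18.2, 28.4 and 20.9 on the sense strand, and 2 of the 4 reached 10, Tm1 and sls. Mef2 and Mhc had sense means of only 0.65 and 0.33, below the median of 1.39 for all genes. The 2 haemocyte genes in the tables summed to 3.67 to 6.76, elav of the nervous system had 2.39 to 4.80, and 1 testis gene had at most 0.20. No fat body or gut gene of the list was in the tables. Small RNA levels of these genes do not give their mRNA levels.

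The other leading sense features were in part non-coding RNAs. The 7SL RNA of the signal recognition particle, 7SLRNA:CR32864, had 882, 640 and 709 on the sense strand and was listed at 0 on the antisense strand. lncRNA:CR34335 had 400, 381 and 326, against 2.80, 1.60 and 5.43 on the antisense strand. A pair of small nucleolar RNAs on different chromosomes, snoRNA:CD-24 with 193, 234 and 310 and snoRNA:nop5-x16-a with 192, 227 and 303, had nearly the same values, and whether they share reads was not tested. Non-coding features made up 1.63% of those counted and 11.6% ± 1.4 of the sense abundance. Those with a mean of at least 10 all lay on the reverse genomic strand by their identifiers, so these shares are not a survey of non-coding RNAs. The 14 snoRNAs with a sense mean of at least 10 had no antisense abundance at all, and the class gave 4.93% ± 1.1 of sense. The tables give no read lengths, and fragments of structural RNAs or of mRNAs were therefore not separated from piRNAs. This limit holds for Cp15 and the other eggshell genes as well.

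Among coding genes, Myc, which encodes a growth-promoting transcription factor, was the strongest outside the eggshell. It had 334, 383 and 378 on the sense strand and was listed at 0 on the antisense strand, and its libraries lay close together. fok had 183, 158 and 194 on the sense strand, against 0, 0.40 and 0.63 on the antisense strand. PlexA, a semaphorin receptor gene on chromosome 4, had 138, 210 and 179 on the sense strand, against 25.2, 22.8 and 18.98 on the antisense strand, and was the only gene among the 15 strongest on both strands. CG17715, Tdg (thymine DNA glycosylase), the minor spliceosome RNA snRNA:U4atac and Agpat1 (a lipid acyltransferase) closed the list, with sense means between 109 and 136 and antisense means of at most 3.98.

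**Figure D4:**
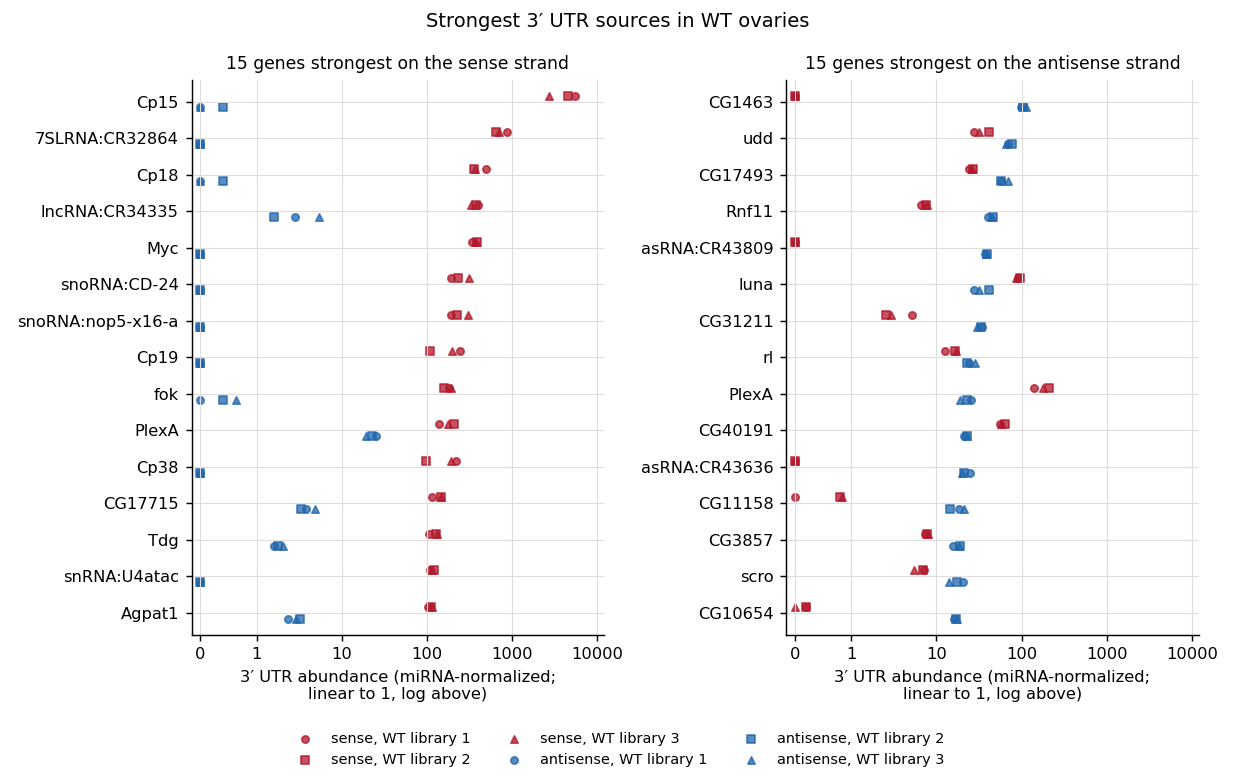
Abundance of the 3′ UTRs (or non-coding RNA features) of 15 genes, those strongest by sense (left) or by antisense abundance (right), with sense values in red above antisense values in blue and 1 symbol for each WT library. The axis is linear up to 1 and logarithmic above. Sense leaders have at most 5.43 on the antisense strand, except PlexA, and several antisense leaders, such as udd and luna, have sense abundance too.

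The leading antisense sources were mostly not those of the sense strand, although 7 of the 26 features with an antisense mean of at least 10 reached that level on both. The strongest was CG1463 on chromosome X, with a 3′ UTR that starts at 12504010 in dm3. It was listed at 0 on the sense strand in all 3 libraries, against 99.7, 104 and 114 on the antisense strand, which was 7.09% of the antisense abundance. No exon of another gene and no transposon insertion overlapped it in the annotation used. Its neighbour Sec16, on the opposite strand, has a 3′ UTR that starts at 12502974 in dm3. That 3′ UTR had 22.8, 27.1 and 24.5 in sense, on the strand that is antisense for CG1463, and whether these signals are linked was not tested. Second came udd, an RNA polymerase I factor gene, with 27.5, 41.0 and 31.2 on the sense strand, against 70.0, 77.2 and 66.4 on the antisense strand. Its log2 difference was −1.09 ± 0.13 (SE; limma, adjusted p = 3.25e-04), which did not pass the test beyond 2-fold (adjusted p = 0.26).

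CG17493 had 24.1, 26.7 and 25.8 on the sense strand, against 57.6, 57.8 and 68.5 on the antisense strand. Rnf11, a RING finger gene on chromosome 4, had 6.62, 7.57 and 7.82 on the sense strand, against 39.8, 45.9 and 44.8 on the antisense strand of its stronger 3′ UTR feature. A second Rnf11 feature, which starts at 348791 instead of 340426, had 0, 0.64 and 0.42 against 29.0, 43.8 and 39.2. Antisense exceeded sense in all 3 libraries for each of these. luna, a zinc finger transcription factor gene, went the other way, with 91.6, 97.0 and 86.2 on the sense strand, against 27.7, 41.0 and 31.8 on the antisense strand.

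Strong antisense values were also found in rl, which encodes the ERK kinase, CG40191 and scro, a homeobox gene, all placed on heterochromatic scaffolds of dm3. rl had 12.7, 16.3 and 16.9 on the sense strand, against 23.8, 22.5 and 28.3 on the antisense strand. CG40191 had more sense than antisense, with means of 58.8 ± 4.6 and 22.3 ± 1.2, and scro less, with 6.54 ± 0.97 and 17.3 ± 3.2 (SD, n = 3). Heterochromatic and unplaced scaffolds held 0.92% of the features, 1.04% ± 0.11 of the sense and 6.40% ± 0.70 of the antisense abundance. Chromosome 4 held 1.76% of the features, 4.08% ± 0.69 of sense and 10.4% ± 0.23 of antisense. In all 3 libraries these shares were larger on the antisense strand (2-sided exact permutation test, p = 0.25 each). The same held for chromosome X, with 19.4% of sense and 25.6% of antisense, and for 2R, with 11.2% and 14.7%. Chromosome 3L, which holds Cp15, went the other way in all 3 libraries, with 33.7% and 11.3%. Shares within a strand trade off, so this lowers the sense shares of the others.

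Annotation of Release 6, used only for which elements overlap, showed transposon insertions in the 3′ UTRs of many antisense sources. Of 18 coding genes with an antisense mean of at least 10, 11 held one in a 3′ UTR (61.1%), compared with 3.58% of 2877 coding genes and 12.3% of the 203 with a sense mean of at least 10. In 9 of the 11 an insertion lay in the orientation of the gene. Examples are a 297 element in udd, Stalker2 in Rnf11, opus in CG3857, 412 in teq (a serine protease gene) and G5A in nrm (a cell adhesion gene). The insertion in luna, a 297 element, lay in the opposite orientation, as did a 1360 element in CG40191. These counts describe the annotated reference genome, and the insertions of the flies themselves were not examined.

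CG3857 had 7.28, 7.65 and 7.94 on the sense strand, against 15.6, 19.1 and 18.5 on the antisense strand, and teq had 1.25, 1.39 and 1.62, against 15.4, 16.6 and 18.3. Both were higher on the antisense strand in every library. CG31211, with no annotated insertion, had 5.20, 2.53 and 2.92 on the sense strand, against 34.3, 33.0 and 29.8 on the antisense strand. The strands did not overlap.

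A further group of antisense sources lay opposite another gene. The 21 annotated antisense RNA features listed here, not a survey of such RNAs, gave 0.045% of the sense and 9.21% ± 0.86 of the antisense abundance. asRNA:CR43809 was listed at 0 on the sense strand, against 37.6, 39.5 and 37.8 on the antisense strand, where the annotation places the gene CG9257. asRNA:CR43636, opposite CG15721, was likewise listed at 0 on the sense strand, against 24.8, 21.1 and 20.1 on the antisense strand. asRNA:CR31144, opposite RpL3 (itself a sense source, above), had 0, 0.40 and 0, against 10.8, 15.96 and 12.5. Small RNAs counted as antisense to these RNAs lie on the strand of the gene opposite. The same reads may therefore enter the sense value of that gene and the antisense sums, which was not separated here.

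Of the 18 coding genes with an antisense mean of at least 10, the 3 with an exon of another gene opposite were Rnf11, CG11158 and CG10654. Rnf11, which also holds an insertion (above), overlaps PMCA, a calcium pump gene. CG11158, whose 3′ UTR overlaps the NAD synthetase gene Nadsyn, had 0, 0.80 and 0.84 on the sense strand, against 18.1, 14.5 and 21.0 on the antisense strand. CG10654, which overlaps vih, a ubiquitin-conjugating enzyme gene, had 0.20, 0.20 and 0, against 16.01, 17.2 and 17.3. The 3′ UTR of vih had 16.01, 19.15 and 17.75 on its own sense strand, and whether reads were counted for both genes was not tested. Across all coding genes 27.5% had an exon of another gene on the opposite strand of a 3′ UTR, compared with 3 of the 18 with an antisense mean of at least 10 (16.7%) and 46.3% of the 160 with an antisense mean of at least 1. Exon overlap was thus the more common in the wider set and insertions in the set of 18, shares for which no test was run.

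Concentration of 3′ UTR abundance depended on Cp15. The 10 strongest features held 32.4% ± 5.9 of the sense and 31.6% ± 0.15 of the antisense abundance, a difference of 0.79 percentage points that was positive in 2 of 3 libraries (2-sided exact permutation test, p = 0.75). Without Cp15 they held 17.4% ± 1.8 of sense and 31.6% ± 0.15 of antisense, so the direction turned to −14.3 points (an alternative chosen after seeing the data). Without library 1, in which Cp15 was highest, it turned to −2.32 points. Between 41 and 85 features made up 50% of the sense abundance, against 29 to 30 on the antisense strand.

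Replicate agreement was lower for 3′ UTRs than for clusters. The median CV was 15.01% for the 274 sense features with a mean of at least 10 and 13.1% for the 26 antisense ones, against 5.66% and 5.67% for clusters. Median absolute log2 differences between libraries ran from 0.18 to 0.27 on the sense strand and from 0.14 to 0.25 on the antisense strand. A CV of at least 30% was found for 33 of the 274, among them Yp1, Cp15, Cp19, Cp38, Vm26Aa and the non-coding RNAs sncRNA:CR43603 and snoRNA:kis-a. Steady features existed at similar levels, such as the splicing factor gene Sf3b3 with 94.5, 89.4 and 94.4 and snRNA:U4atac with 110, 121 and 114 on the sense strand.

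**Figure D5:**
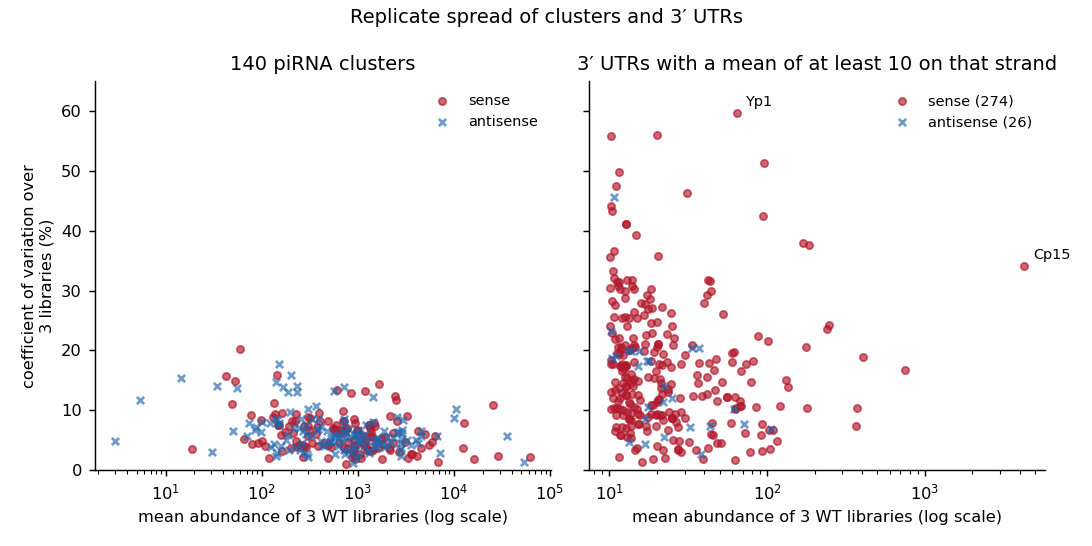
Coefficient of variation over the 3 WT libraries (%) against mean abundance (log scale) for 140 clusters (left) and for 3′ UTRs with a mean of at least 10 on that strand (right), with sense as circles and antisense as crosses. Clusters mostly stay below 15%, and 3′ UTRs spread up to 59.7% for Yp1, with Cp15 at 34.1% in spite of its high level.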

How the data were processed

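Small RNAs of 18 to 30 nt from WT ovaries were sequenced in 3 libraries. The authors' methods name piPipes 1.4.12 in its default small RNA mode, the UCSC dm3 genome, unique mappers and normalization to the miRNAs of each library. The deposited values are abundances, a linear signal of 0 or more, in 1 table per strand for clusters and 1 per strand for 3′ UTRs. Low values gathered at steps of 0.40, 0.40 and 0.42, taken as 1 read, but only 34.2%, 36.0% and 37.1% of them were whole steps (tolerance 0.006 of abundance), so the values look like reads shared between positions, not like unique mappers alone, and no count test was run. Clusters or snoRNAs of related sequence may therefore share reads. Read equivalents are abundance divided by this step. A row without a name was left out of each cluster table.

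Strands were compared within libraries by limma 3.58.1 in R 4.3.3 on log2(sense + 1) − log2(antisense + 1), against 0 and, by treat, against a bound of 2-fold, with Benjamini-Hochberg adjustment over all features tested. The pseudocount understates differences of low features. Because limma pools the variance over features, adjusted p-values of clusters are very small, and p-values from each cluster's own variance are given for some. 3′ UTRs with a mean of at least 10 on the higher strand were tested. Values of 1 figure per library and strand were compared by exact permutation within libraries with Python 3.11.15 and scipy 1.17.1. Both limma steps were tested on simulated data.

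Symbols came from Release 6 tables for 8313 of the 8510 features (97.7%), which give no dm3 coordinates. Printed chromosomes and starts were read from the dm3 identifiers. Named clusters are the 10 strongest over both strands and on each strand, the 5 with the largest and smallest sense share, the 5 nearest 50% and the 5 with the largest rank shift among the 50 strongest. Named 3′ UTRs are the 15 strongest genes per strand, the 10 with the highest antisense share and the strongest of each list, with others chosen after their values were seen. Members, lists and tests were chosen with earlier results of these data known. Alternatives were the pseudocount, the library block, the variance model, minimum levels, the 80% limit, how features are counted, and leaving out 42AB or each library. No sequences are printed, since no genome of the dm3 build was used here.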

Additional observations from a re-analysis of the deposited data

How the results depend on the processing

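Of 124 alternative values of the summary results, 110 kept their direction and stayed within 1.5 times of the reported count or on the same side of the test, 11 moved and 3 reversed. The counts of 3′ UTRs higher on sense and antisense were 2454 and 133 with a minimum mean of 1 and 19 and 1 with a minimum of 100, and beyond 2-fold 1573 and 53, and 19 and 1, since the minimum sets how many are tested. One-sided sense clusters numbered 20 at a limit of 75% and 5 at 90%, and one-sided antisense clusters 2 at 90%. The difference in the share of the 10 strongest 3′ UTRs (sense minus antisense) reversed to −14.3 points without Cp15 and −4.03 points without non-coding RNAs, both chosen after seeing the data, and ran from −2.32 to 3.68 points when 1 library was left out. Without the replicate block, which treats the strands of a library as unpaired, 74 and 52 clusters were higher on sense and antisense, 26 and 13 beyond 2-fold, and 271 and 22 3′ UTRs, 271 and 16 beyond 2-fold. Of 579 alternative values for 59 named clusters and 3′ UTRs, 573 kept direction and call. The exceptions were cluster 22, which lost its call in 4 (among them no replicate block, adjusted p = 0.24 by limma), cluster 30, which gained one with an intensity trend (adjusted p = 0.022 by limma), and cluster 43, whose difference ran from −0.0073 (without library 3) to 0.074 when 1 library was left out. Antisense 3′ UTR values are limited by depth, at 3526 to 3878 read equivalents a library.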
